A study of Mus musculus with 6 samples.

Results

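The interferon regulatory factor (IRF) genes Irf1, Irf2, Irf3, Irf5, Irf7, Irf8 and Irf9 were taken by gene name from the deposited gene table, 7 of its 22475 genes. RNA had been sequenced from Lin- cKit+ Sca1+ cells sorted from mouse bone marrow, a fraction rich in haematopoietic stem and progenitor cells. The KO group was FLT3-ITD mice homozygous for a deletion of the microRNA miR-155, and the control group was FLT3-ITD mice with wild-type miR-155. FLT3-ITD, a mutant receptor with a duplicated internal stretch that signals without its ligand, was homozygous in each group, so neither group shows the IRF genes in cells with normal FLT3. Each group had 3 libraries and each library pooled the RNA of 3 mice, so p-values measure the spread between pools. Strain, age, sex and the promoter of the mutant Flt3 allele were not given in the labels.

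IRF proteins share an N-terminal DNA-binding domain that reads repeats of GAAA, the core of the interferon-stimulated response element (ISRE). IRF3 and IRF7 are switched on by the kinases TBK1 and IKK-epsilon after viral nucleic acid is sensed and drive the interferon genes, while IRF5 acts behind MYD88-dependent Toll-like receptors. IRF9 is the DNA-binding part of ISGF3, the complex that carries the type I interferon signal to the ISRE. IRF1 is induced by interferon-gamma through a GAS element, and IRF2 competes with IRF1 for the same sites. In mice, IRF2 also shields haematopoietic stem cells from type I interferon, and IRF8 directs monocyte and dendritic cell development.

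Promoter stretches of Irf1, Irf2 and Irf8 are printed because they hold the letters of a GAS element or of the ISRE that IRF proteins read. They were cut from the 250 bases before each RefSeq start site (build GRCm38.p6, sense strand) with up to 40 bases on each side of the matches. Capitals mark a GAS match, TTCNNNGAA, and in Irf2 also the ISRE core, GAAA followed after any 2 bases by GAAA, which lies first.
Irf1, chr11:53769884-53769972, + strand: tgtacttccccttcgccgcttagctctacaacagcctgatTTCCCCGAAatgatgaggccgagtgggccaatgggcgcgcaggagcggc
Irf2, chr8:46739495-46739569, + strand: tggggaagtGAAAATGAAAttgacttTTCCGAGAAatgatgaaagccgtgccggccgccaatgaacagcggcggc
Irf8, chr8:120736147-120736253, + strand: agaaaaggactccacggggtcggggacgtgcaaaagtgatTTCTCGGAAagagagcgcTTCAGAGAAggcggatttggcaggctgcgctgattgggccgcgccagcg
The GAS match lay 90 bases upstream of the start site in Irf1 and 224 bases upstream in Irf2, and the pair in Irf8 began 171 and 153 bases upstream. The ISRE core of Irf2 began 241 bases upstream. Both strands were searched, the motifs did not overlap in these windows, and the table gave 10 start sites for the 7 genes. A GAS match was found for 3 of the 7 genes and for 8.13% of the 27025 genes in the RefSeq table, and an ISRE core for 1 of the 7 and for 3.46% of all. These matches describe the letters and show no binding.

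The mature miR-155-5p that the KO mice lack is given with its seed, bases 2 to 8, in capitals (RefSeq, chr16:84714143-84714165, + strand).
miR-155-5p: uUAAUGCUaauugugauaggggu
Its seed match was looked for in the longest annotated 3' untranslated region of each gene (GENCODE M21, GRCm38). None of the 7 IRF genes held the 8mer AGCATTAA or either 7mer (AGCATTA or GCATTAA). Among 11761 tested genes with such a region, 400 (3.40%) held the 8mer and 14.7% held at least 1 of the 3 kinds of site.

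Totals lay between 6843129 and 7601317 counts in the KO libraries and between 8136914 and 9443615 in the control libraries. The label of the deletion was checked on Gm26667, the long noncoding RNA at the miR-155 host locus, which had 4, 14 and 4 counts in KO replicates 1, 2 and 3 and 33, 48 and 36 counts in the control replicates (log2 fold change -2.14 ± 0.46 SE, adjusted p 0.274 in edgeR and 0.0377 with the replicate number as a block). Of 10 stem and progenitor markers, 9 lay above 1 CPM (counts relative to the TMM-scaled library total) in each library. Of 9 lineage antigens, 5 lay above 1 CPM in each library. Among these Itgam ranged from 32.9 to 48.4 CPM, Cd4 from 4.61 to 18.7 CPM, Cd8a from 4.82 to 19.6 CPM and the pan-leukocyte gene Ptprc from 866 to 1295 CPM over the 6 libraries, whereas Cd3e and Ly6g ranged from 0.256 to 1.38 CPM. All 9 conventional dendritic cell markers, the Cd74 and Clec9a genes among them, lay above 1 CPM in each library. Both libraries of number 1 stood apart, with summed macrophage markers of 765 CPM in KO replicate 1 and 1026 CPM in control replicate 1, against 152 to 321 CPM in the other 4. The pools of equal number also matched in sex-linked genes. Xist lay at 1715 and 1652 CPM in KO and control replicate 1, 26.5 and 34.7 CPM in replicate 2, and 660 and 688 CPM in replicate 3. The Y-linked Ddx3y had 1 and 3 counts in KO and control replicate 1, 1523 and 1808 in replicate 2, and 1022 and 1029 in replicate 3.

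Per unit of gene length, Irf8 was the most abundant of the 7 and Irf2 the least. The deposited FPKM values divide counts by gene length and library total. In the KO libraries they ranged from 97.1 to 191 for Irf8, 55.1 to 121 for Irf7, 51.1 to 93.1 for Irf5, 42.5 to 55.2 for Irf1, 24.5 to 36.9 for Irf9, 22.01 to 24.3 for Irf3 and 9.64 to 10.2 for Irf2. In the control libraries they ranged from 86.8 to 133 for Irf8, 48.1 to 59.7 for Irf5, 34.2 to 59.7 for Irf7, 30.5 to 39.6 for Irf1, 22.3 to 25.7 for Irf9, 21.2 to 23.6 for Irf3 and 11.5 to 11.8 for Irf2. The ranges of Irf7 and Irf5 overlapped in both groups, as did those of Irf7 and Irf1. Those of Irf8 and Irf7, and of Irf5 and Irf1, overlapped in the KO libraries, and those of Irf9 and Irf3 in the control libraries. Over all 6 libraries Irf8 lay at percentile 96.9 of the 13217 genes tested by mean FPKM and Irf2 at percentile 52.1.

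The comparison asked how the family's RNA differed when miR-155 was missing from FLT3-ITD cells. Of the 7 genes, 6 had a positive log2 fold change (50.2% of all genes tested) and Irf2 a negative one, with a median of 0.31 against 0.00096 over all genes tested. None passed an adjusted p of 0.05 in edgeR's quasi-likelihood test, in which 0.159% of the 13217 genes passed, 0.0151% upward and 0.144% downward. At an unadjusted p under 0.05, 2 of the 7 (Irf1 and Irf7) and 3.90% of all genes passed. DESeq2 and limma-voom also called none of the 7. With the replicate number as a block, 1 of the 7 passed, Irf7, which was higher. In that fit 1.36% of all genes passed, 0.318% upward and 1.04% downward, and at an unadjusted p under 0.05 it was 3 of the 7 (Irf1, Irf7 and Irf9) and 9.37% of all genes. In all 3 pairs of equal number, 5 of the 7 were higher in the KO library (15.1% of all genes) and 1 was lower (16.5% of all). The groups did not overlap for Irf1, with the KO above (3.43% of all genes), and for Irf2, with the KO below (4.79% of all genes).

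**Figure D1:**
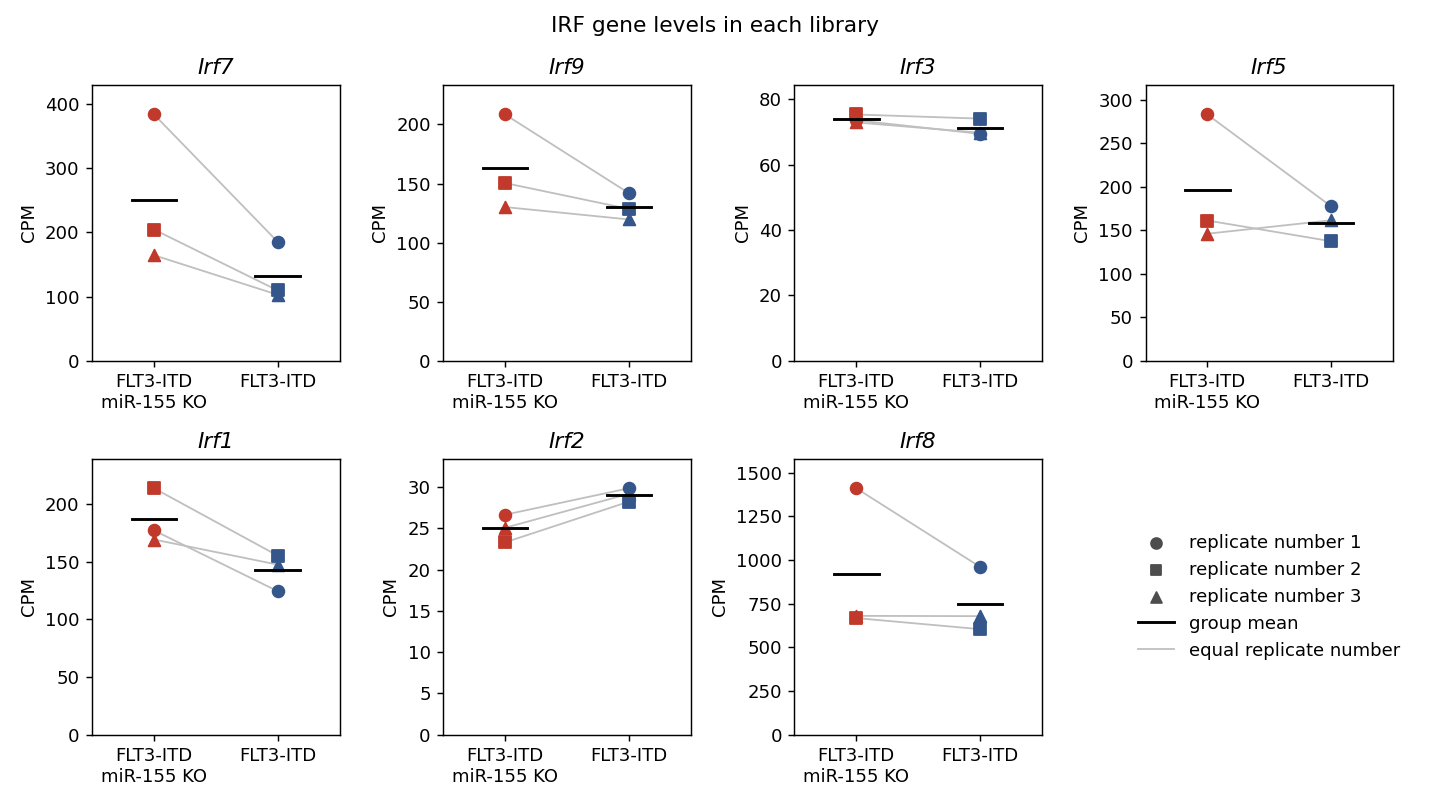
Level of each IRF gene in CPM (y axis, from 0) in the 3 FLT3-ITD miR-155 KO libraries (left, red) and the 3 FLT3-ITD libraries (right, blue). Marker shape gives the replicate number, thin lines join equal numbers and black bars are group means. Irf7 averaged 251 CPM in the KO and 132 CPM in the control libraries, whereas Irf3 lay between 69.4 and 75.3 CPM in all 6.

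Irf7, the interferon-inducible amplifier of the type I response, showed the largest difference of the 7. It had 383, 204 and 164 CPM in KO replicates 1, 2 and 3, against 185, 109 and 103 CPM in control replicates 1, 2 and 3. Each KO library lay above the control library of equal number, yet KO replicate 3 lay below control replicate 1, so the groups overlapped. Its log2 fold change was 0.92 ± 0.35 (SE), a 1.89-fold higher level, which did not pass in edgeR (adjusted p 0.9995). With the replicate block Irf7 rose by 0.88 ± 0.085 (SE; edgeR adjusted p 0.00477). The pairs of numbers 1, 2 and 3 differed by 1.05, 0.90 and 0.68 on the log2 scale. Without both libraries of number 2 the blocked value was 0.86 and did not pass (adjusted p 0.0851 in edgeR), and without both of number 1 or number 3 it passed (adjusted p 0.00232 and 4.2e-05). Over all genes 98 passed in the blocked fit without number 2, 205 without number 1 and 471 without number 3. Without KO replicate 1 and without the block, the log2 fold change of Irf7 was 0.48. The authors' deposited table gave Irf7 a log2 fold change of 0.92 and an adjusted p of 0.438. The gene lies on chromosome 7 (141262706 to 141266481, minus strand, GRCm38, the build of all loci given here, with the other 6 genes on the plus strand) and shares 45 exon bases with Phrf1 on the other strand.

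Irf9, the DNA-binding subunit of ISGF3, was higher in the KO library of each pair but did not pass. Its levels were 208, 150 and 130 CPM in KO replicates 1, 2 and 3, against 142, 129 and 120 CPM in control replicates 1, 2 and 3. Control replicate 1 lay above KO replicate 3, so the groups overlapped. The log2 fold change was 0.33 ± 0.17 (SE; adjusted p 0.9995 in edgeR), and 0.30 ± 0.093 with the block (adjusted p 0.332). It was 0.11 without KO replicate 1. Irf9 (chromosome 14, 55603571 to 55610030) overlaps Rnf31 on the same strand by 123 exon bases, where reads of the pair could not be told apart.

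Irf3, the ready-made partner of Irf7 that is kept in resting cells, varied least. It had 73.6, 75.3 and 72.9 CPM in KO replicates 1, 2 and 3, against 69.4, 74.1 and 69.8 CPM in control replicates 1, 2 and 3. The highest library was 1.09 times the lowest, compared with 3.73 times for Irf7. The log2 fold change of Irf3 was 0.06 ± 0.077 (SE; adjusted p 0.9995 in edgeR). Irf3 (chromosome 7, 44997648 to 45002848) shares 88 exon bases with Bcl2l12 on the other strand.

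Irf5, the Toll-like receptor effector, differed between the pairs in sign. It had 283, 161 and 146 CPM in KO replicates 1, 2 and 3, against 178, 138 and 162 CPM in control replicates 1, 2 and 3. KO replicate 1 lay above every other library and KO replicate 3 below the control library of its number. The log2 fold change was 0.31 ± 0.25 (SE; adjusted p 0.9995 in edgeR), and without KO replicate 1 it was -0.043. With the block Irf5 passed when both libraries of number 3, its negative pair, were left out (0.46, edgeR adjusted p 0.0416). In that fit 471 of 13373 genes passed, against 180 of 13217 with no library left out. Irf5 (chromosome 6, 29526625 to 29541871) shares 411 exon bases with Tnpo3 on the other strand.

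Irf1 had 177, 214 and 169 CPM in KO replicates 1, 2 and 3, against 124, 155.2 and 147 CPM in control replicates 1, 2 and 3. The lowest KO library lay above the highest control library. The log2 fold change was 0.39 ± 0.12 (SE), a 1.31-fold higher level that did not pass in edgeR (adjusted p 0.800, or 0.0995 with the block). Leaving out 1 library gave 0.28 to 0.46. With the block and without both libraries of number 3, where 471 of 13373 genes passed, Irf1 passed (0.49, edgeR adjusted p 0.00756). Its antagonist Irf2 went the other way, with 26.7, 23.3 and 25.1 CPM in KO replicates 1, 2 and 3, against 29.9, 28.3 and 29.2 CPM in control replicates 1, 2 and 3. Every KO library of Irf2 lay below every control library. The log2 fold change of Irf2 was -0.22 ± 0.10 (SE) and did not pass either (edgeR adjusted p 0.9995, or 0.553 with the block). Leaving out 1 library gave -0.26 to -0.18 for Irf2. Irf1 lies on chromosome 11 (53770014 to 53778374), with 135 exon bases shared with Gm17334 on the other strand, and Irf2 on chromosome 8 (46739732 to 46847458).

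Irf8, the most abundant member, had 1411, 667 and 680 CPM in KO replicates 1, 2 and 3, against 961, 604 and 678 CPM in control replicates 1, 2 and 3. The library of number 1 was the highest in both groups, and the other 4 lay between 604 and 680 CPM. The log2 fold change was 0.30 ± 0.32 (SE; adjusted p 0.9995 in edgeR), and without KO replicate 1 it was -0.15. Irf8 lies on chromosome 8 (120736358 to 120756694), where the annotated gene Gm20388 overlaps it on the same strand with no shared exon base.

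**Figure D2:**
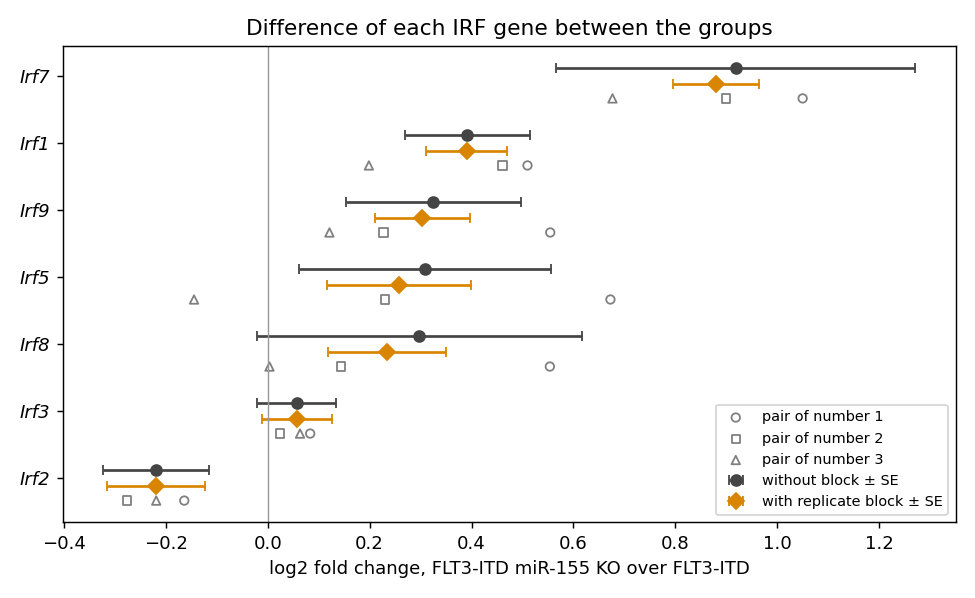
Log2 fold change of each IRF gene, FLT3-ITD miR-155 KO over FLT3-ITD (x axis), in edgeR without a block (circles) and with the replicate block (diamonds), with SE as bars, and the 3 differences between libraries of equal number (open markers). The pairs of Irf7 lie at 0.68 or above and those of Irf2 at -0.16 or below, while Irf5 has pairs on both sides of 0.

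Irf5, Irf7, Irf8 and Irf9 were highest in the library of number 1 within both groups. Irf2 was too, over a narrower range (1.28 times between the highest and lowest of the 6 libraries), whereas Irf1 and Irf3 were highest in number 2. In KO replicate 1, Irf7, Irf8, Irf5 and Irf9 lay 1.15, 0.83, 0.71 and 0.53 log2 units above their mean over the 6 libraries. Summed markers of conventional dendritic cells, plasmacytoid dendritic cells and macrophages were also highest in the library of number 1 within each group, while those of stem and progenitor cells were lowest there. The sums for neutrophils and monocytes, B cells, erythroid cells and lineage antigens were likewise highest in number 1 within each group. Those for plasma cells and for T and NK cells were not. The lineage antigen sums, 923 to 1376 CPM over the 6 libraries, were mostly Ptprc, the pan-leukocyte gene. Neutrophil and monocyte markers summed to 2157 and 2262 CPM in KO and control replicate 1, against 1548 to 1723 CPM in the other libraries. Of these sums Ccr2 gave 1306, 664 and 682 CPM in KO replicates 1, 2 and 3. In control replicates 1, 2 and 3 it gave 969, 573 and 758 CPM. By gene, 6 of the 9 markers were lower in the KO in all 3 pairs (16.5% of all genes) and 0 were higher. Their median log2 fold change was -0.70, and -1.03 in the pair of number 1, so the sum does not stand for each marker. The summed conventional dendritic cell markers were 15088, 7239 and 5579 CPM in KO replicates 1, 2 and 3, against 8103, 6674 and 7367 CPM in control replicates 1, 2 and 3. That list includes Cd74 and genes of MHC class II chains, and the sum was not split by gene. KO replicate 1 had the highest sum, as it had the highest level of Irf5, Irf7, Irf8 and Irf9. The macrophage sums, with 12 of 13 markers in the table and 9 above 1 CPM in each library, were 765, 210 and 321 CPM in the KO and 1026, 152 and 178 CPM in the control libraries. The plasmacytoid dendritic cell sums (6 of 9 markers above 1 CPM in each library) ranged from 339 to 455 CPM in the KO and from 377 to 418 CPM in the control libraries, with Klk1 and Cox6a2 under 1 CPM in all 6. No marker of the dendritic and macrophage lists that was in the table was at 0 in every library. The stem and progenitor sums were 1468, 2115 and 2074 CPM in KO replicates 1, 2 and 3, against 1557, 2292 and 2148 CPM in control replicates 1, 2 and 3. The plasma cell sums separated the groups instead, at 671 to 1734 CPM in the KO and 3050 to 4407 CPM in the control libraries. The part of these markers in the differences of the IRF genes was not tested, and in pooled RNA more cells of a type and more RNA per cell cannot be told apart. The part of the pools' sex, which by Xist and Ddx3y differed between the numbers, was not tested either. Without both libraries of number 1 and without the block, the log2 fold changes were 0.80 for Irf7, 0.34 for Irf1, 0.18 for Irf9, 0.07 for Irf8, 0.05 for Irf3, 0.04 for Irf5 and -0.25 for Irf2.

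**Figure D3:**
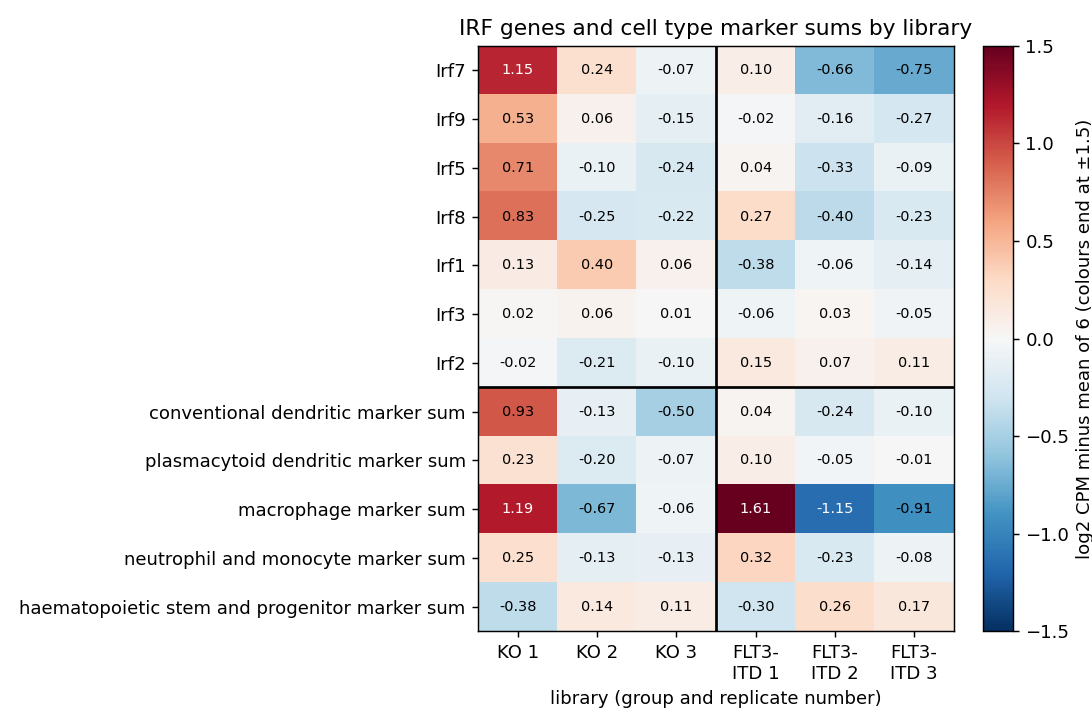
Log2 CPM of the IRF genes and log2 summed CPM of marker lists (rows) in the 3 KO and 3 FLT3-ITD libraries (columns), each minus its mean over the 6 libraries. KO replicate 1 is the highest library for Irf7 (1.15), Irf8 (0.83), Irf5 (0.71) and Irf9 (0.53), and for the conventional dendritic sum (0.93), while the macrophage sum is highest in control replicate 1 (1.61).

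The genes most like each member across the 6 libraries were taken from 10273 others with a mean log2 CPM of at least 3, by Pearson's r as a description. Irf7 was followed by Tor3a, Mmp28 and Cmpk2 (r from 0.995 to 0.998). Irf9 was followed by Slfn8, Neurl1b and Map2k6 (0.995 to 0.997). Irf5 was followed by Tmem51, Nbeal1 and Ptprj (0.996 to 0.999), and Irf8 by Gdi2, Ahnak and Mpeg1 (0.996 to 0.997). Irf1 was nearest to Upf1, Zbtb33 and Mlxip (0.974 to 0.992), Irf2 to Sdc4, Golga4 and Arfgap3 (0.980 to 0.990), and Irf3 to Mrpl17, Zfp212 and Nr1h2 (0.972 to 0.982). The 6 points share 2 groups and, by number, 3 pairs of pools, and the highest of 10273 values is high by selection.

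Upstream of the family, no sensor, adaptor or kinase passed without the block. Of 11 sensors, 7 had a positive log2 fold change (50.2% of all genes tested; median 0.20), and with the block 1 passed (1.36% of all genes), Ifih1, the cytosolic RNA sensor MDA5, which rose by 0.40 (adjusted p 0.0377 in edgeR). That count was 0 without both libraries of number 1 or of number 2, and 2 without number 3. Over all genes 205, 98 and 471 passed in the blocked fits without number 1, 2 and 3. Zbp1 (0.83), Dhx58 (0.43) and Mb21d1 (0.20), the sensors of Z-form nucleic acid, viral RNA and cytosolic DNA, did not pass. Of 14 adaptors and kinases, 12 were positive (50.2% of all genes; median 0.10) and none passed in either fit. Those with the smallest p were Tbkbp1 (0.30), Tbk1 (0.14), Mavs (0.15) and Unc93b1 (0.34). The interferon genes were at the edge of detection: 5 of 16 were in the table and none had enough counts to test. Ifng had 6, 16 and 8 counts in the KO and 6, 19 and 10 counts in the control libraries, and Ifnb1 had 1, 1 and 0 counts in the KO and 0 in each control library. Ifna2 had 2, 1 and 1 counts in the KO and 0 in each control library. Ifna4 had 0, 1 and 0 counts in both groups. Ifnz had 0, 1 and 0 counts in the KO and 0 in each control library. Counts of 0 allow up to 3 counts, or 0.326 to 0.460 CPM per library.

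Among 11 partners of IRF proteins, 8 were positive (50.2% of all genes; median 0.19) and none passed without the block. The transcription factor Ets1 had 32.9, 45.2 and 40.5 CPM in KO replicates 1, 2 and 3, against 48.6, 60.1 and 59.7 CPM in control replicates 1, 2 and 3. With the block Ets1 fell by 0.51 (adjusted p 0.0381 in edgeR; 1.04% of all genes fell), and the list's count of 1 became 0 without both libraries of number 1 or of number 2, and 3 without number 3. The T and NK cell markers, of lymphocytes that also express Ets1, summed to 52.9 to 83.2 CPM in the KO and 94.6 to 96.3 CPM in the control libraries, and their part was not tested. The ISGF3 subunit Stat2 (0.39) had a fold change near that of Irf9 and did not pass, nor did the coactivator Ep300 (0.19). Of 12 inhibitors, 8 were positive (50.2% of all genes were), with a median of 0.07. None passed without the block (0.159% of all genes did). With the block, where 0.318% of all genes rose, Usp18, which dampens the interferon receptor, rose (0.88, adjusted p 0.00314 in edgeR). The count of this list stayed at 1 without both libraries of any 1 number. Trim21 (0.15), Irf2bp2 (0.08) and Socs1 (0.25), brakes on IRF or cytokine signalling, did not pass.

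Downstream, the differences of reported ISGF3, IRF1 and IRF8 targets were mostly positive. All 14 ISGF3 targets had a positive log2 fold change, against 50.2% of all genes tested, with a median of 0.69 against 0.00096 over all. In all 3 pairs 13 of the 14 were higher, against 15.1% of all genes. None passed without the block, and with it 8 rose, against 0.318% of all genes: Oasl1, Rsad2, Ifit2, Mx1, Cmpk2, Oas2, Ifi44 and Oas1a. Mx1, an antiviral GTPase, had 264, 138 and 126 CPM in KO replicates 1, 2 and 3, against 125, 70.9 and 91.1 CPM in control replicates 1, 2 and 3. Every KO library of Mx1 lay above every control library, narrowly for KO replicate 3. Oasl2, of the 2-5A synthetase family, did not pass (0.43). The blocked count was 5 without both libraries of number 1, 0 without number 2 and 11 without number 3. Over all genes 205, 98 and 471 passed in these fits, 52, 4 and 236 of them upward, so the background moved the same way. The list median was 0.36 without KO replicate 1. Of 13 tested IRF1 targets, 12 were positive (50.2% of all genes; median 0.20). Of these the chemokine Cxcl10 rose in both fits, in which 0.0151% of all genes rose without and 0.318% with the block (1.20 ± 0.13 SE, adjusted p 0.0339 in edgeR, 0.00482 with the block). Cxcl10 had 27.4, 33.95 and 32.9 CPM in KO replicates 1, 2 and 3, against 13.8, 14.01 and 13.3 CPM in control replicates 1, 2 and 3, with no overlap. The list's count of 1 without the block became 0 when any 1 library other than KO replicate 1 was left out, and with the block it was 0 without both libraries of number 2. Tap1 (0.27), Psmb10 (0.20) and Casp1 (0.18), of antigen processing and inflammasome signalling, did not pass. Of 11 IRF8-dependent myeloid genes, 10 were positive (50.2% of all genes; median 0.20) and none passed without the block. With it, where 0.318% of all genes rose, Ly86, a partner of a Toll-like receptor homologue, rose (0.39, adjusted p 0.0430 in edgeR), a count of 1 that became 0 without both libraries of number 1 or of number 2. Il12b (0.63) and Klf4 (0.33) did not pass, and the list median was -0.06 without KO replicate 1.

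**Figure D4:**
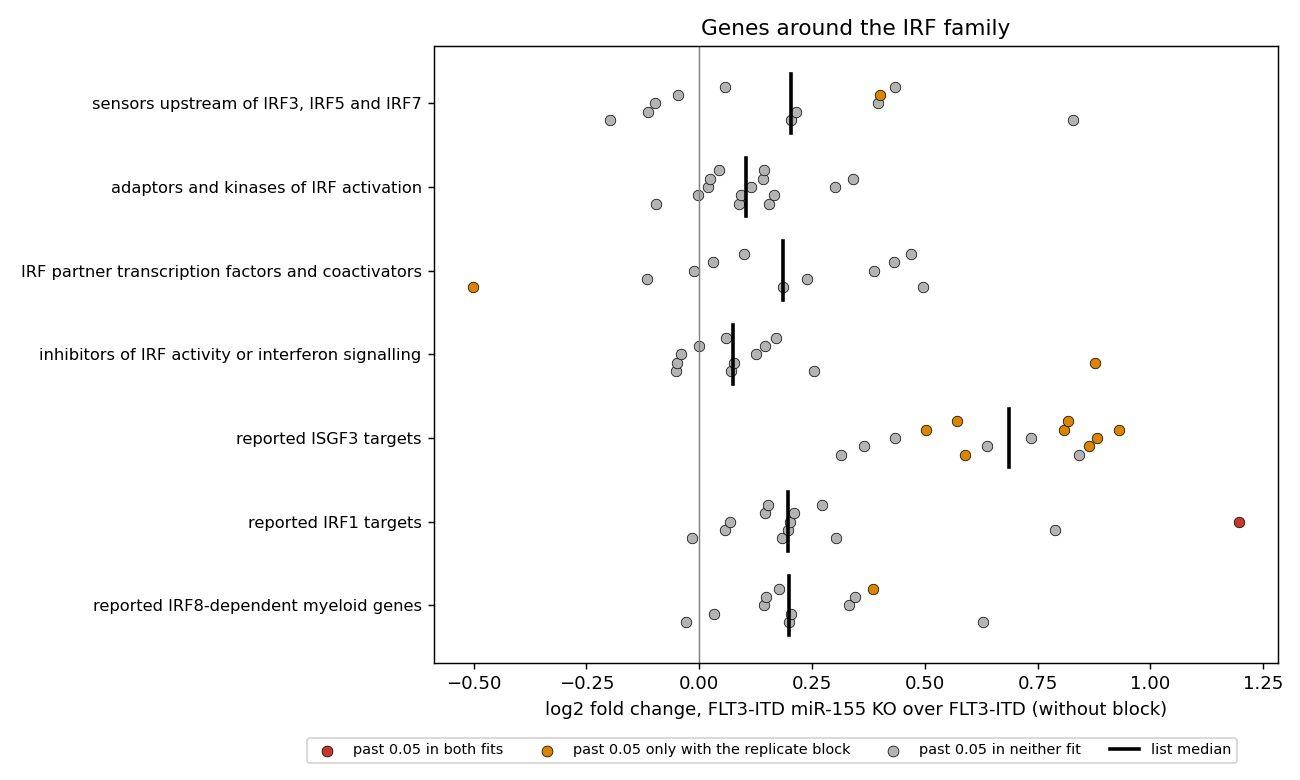
Log2 fold change, FLT3-ITD miR-155 KO over FLT3-ITD, of each tested gene (points) in 7 lists around the IRF family, coloured by the adjusted p in edgeR without and with the replicate block, with the list median as a bar. The median is 0.69 for the ISGF3 targets and between 0.07 and 0.20 for the other 6 lists, and Cxcl10 (1.20) is past 0.05 in both fits.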

How the data were processed

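The authors deposited whole-number counts and FPKM per gene and library, with their own comparison, a log2 fold change and an adjusted p-value per gene. The submitters' processing notes name the mm10 build, DESeq2 1.10.1 and Novoalign 2.08.01, with no role given. The sources used here give no counter, annotation or strand setting, so overlapping and antisense genes are uncertain. The count tests used counts; FPKM gave levels between genes. Taken relative to KO replicate 1, FPKM per count within each library varied by 0% between genes (counts above 100 in all 6 libraries).

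Counts were compared with edgeR 4.0.16 (R 4.3.3): TMM, filterByExpr (minimum count 10, total 15), two-sided quasi-likelihood F test on group alone, Benjamini-Hochberg over 13217 genes, threshold 0.05, SE from F. All 7 IRF genes passed the filter. CPM uses TMM-scaled totals. Replicates differed beyond sampling noise (chi-square per degree of freedom at least 7.80).

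The labels number the replicates alike in each group, with no word on what a number stands for. Deviations from group means correlated by 0.558, 0.492 and 0.198 between equal numbers 1, 2 and 3, all above the limit of 0.1. Between unequal numbers the correlations ranged from -0.484 to 0.133. KO replicate 2 with control replicate 3 (0.133) also lay above the limit, so the limit alone does not separate equal from unequal numbers. With this caveat, the block is given where it changes a call. It left 2 residual degrees of freedom, against 4.

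Named genes are the 7, the host locus, up to 4 per list by smallest p plus those past the threshold, and 3 most alike per member. Outside it, the sex-linked genes, the single cell type markers and the interferon genes given by count were chosen after their values were seen. Some genes under that rule are not reported here. Members and lists were chosen with earlier results of these data known. Alternatives: other size factors, filters, DESeq2 1.42.0, limma-voom (limma 3.58.1), immunoglobulin genes left out, left-out libraries. In simulated data for the KO against control comparison (13073 genes tested), 1.5-fold changes were recovered in 52% and 2-fold in 98% of 50 genes each without the block. The simulated counts held no difference between replicate numbers and took their dispersion from the blocked design. These shares therefore do not measure how often the fit without the block would find such changes in the real libraries. Intervals of 0 counts cover counting error only.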

Additional observations from a re-analysis of the deposited data

How the results depend on the processing

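None of the 7 IRF genes passed without the replicate block, whether with other size factors, no low-count filter, a minimum count of 30, DESeq2, limma-voom, library sizes without immunoglobulin genes, 1 library left out or both of number 1 left out. With the replicate block 1 passed, Irf7 (0.88); it changed no other call among the 7. The block without both libraries of 1 number was added after seeing the data: it called 1 without number 1 (Irf7, 0.79), 0 without number 2 and 3 without number 3 (Irf7 0.98, Irf1 0.49, Irf5 0.46). Leaving out 1 library gave -0.043 to 0.48 for Irf5 and -0.15 to 0.52 for Irf8, which changed sign without KO replicate 1; it gave 0.28 to 0.46 for Irf1, -0.26 to -0.18 for Irf2, 0.04 to 0.09 for Irf3, 0.48 to 1.24 for Irf7 and 0.11 to 0.47 for Irf9.

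Over all genes 21 passed, 180 with the replicate block, 205, 98 and 471 with it and without number 1, 2 or 3, 131 with DESeq2, 97 without a filter, and 0 to 27 without 1 library (0 without control replicate 1 or 3, where 766 and 358 genes had an unadjusted p under 0.05). The causes were not tested. By CPM per kb of annotated exons 5 of 7 genes kept their rank (Irf7 and Irf5 traded places).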
